A study of Drosophila melanogaster with 8 samples.

Results

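Transfer RNA genes were examined in the open chromatin of Drosophila melanogaster central brain neurons. The members were chosen by name and place, as all genes of the fly annotation (BDGP6, whose coordinates are those of dm6) whose symbol begins with tRNA: and that lie on the main chromosomes, with mitochondrial tRNA genes left out. This gave 295 genes of 18277 annotated nuclear genes, 5 of them pseudogenes. The family was proposed with earlier results of the same peak lists in view, so the counts below describe these lists. The assay was ATAC-seq, which reads out open DNA as the places where Tn5 transposase can insert adapters. A gene was scored as having a peak when a peak overlapped the gene or the 100 bp on either side of it by at least 1 bp. Below, a gene called open is a gene scored in this way, and a gene without a peak need not be closed.

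The groups were male and female fru+ cells, set against male and female fru- cells, sorted on GFP from adult brains aged 2 to 7 days after the optic lobes were removed. All flies carried UAS-mCD8-GFP, the GAL80 transgene MB247-Gal80 and the driver Fru-GAL4, named FruP1-GAL4 in the study's methods, over a TM2 or TM6B balancer in a w1118 background, so the GFP-negative cells came from the same animals as the GFP-positive cells. The driver reports transcription from the P1 promoter of fruitless, a gene whose male protein FruM directs courtship behavior, and MB247-Gal80 blocks the reporter in mushroom body Kenyon cells, which therefore fell in the fru- pools. Each group had 2 replicates and 1 deposited peak list, labelled as pooled. The single replicates were not analysed here, so no value has a replicate error and no difference between groups was tested. The names of the peaks speak of replicate 1 for the male lists but of replicate 2 for the female lists, and if the names hold, sex and replicate cannot be told apart.

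The lists held 11301 peaks in male fru+ cells, 11218 in female fru+ cells, 11213 in male fru- cells and 11603 in female fru- cells on the main chromosomes. The genome background, the fragment coverage that follows depth, was 17.96, 14.3, 18.9 and 16.4 fragments in the same order. The free-text descriptions of the female fru+ and male fru- samples name each other's group. On the X chromosome the median log2 ratio of fold enrichment to male fru+ was 0.24 in female fru+ cells, 0.07 in male fru- cells and 0.30 in female fru- cells over 1330 regions present in all lists, while on autosomes it was 0.02, 0.09 and 0.08. The list titled female fru+ thus stood with the other female list on X, as its title says. Start sites of the neuronal genes elav, nSyb, brp and Syt1 had a peak in every list. The glial genes repo and moody had none in any list, and the glial gene Eaat1 had one in female fru- cells alone, at a fold enrichment of 3.85.

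Nuclear tRNA genes are transcribed by RNA polymerase III. Their promoter lies inside the gene, in an A box and a B box that bind the factor TFIIIC, which places the initiation factor TFIIIB just upstream of the start. A run of T past the gene ends transcription, and in flies the TBP-related factor Trf takes the place of TBP at many of these genes. Most tRNAs are encoded by several identical genes scattered over the genome, and a cell need not use every copy.

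The B box was searched as GTTCNANNC on the gene strand, and 274 of the 295 genes held it (92.9%). On either strand of the whole window it occurred in 93.6% of tRNA genes and in 8.11% of genome windows of 273 bp, the median width of the tRNA windows. A run of TTTT lay within 30 bp past the end of 281 genes (95.3%), against 21.0% of consecutive 30 bp stretches of the genome. The genes below are shown 5′ to 3′ because the results turn on them, as the gene with the highest enrichment, genes of the incomplete patterns of lists except that of male fru+ and female fru- cells, and members of families of identical copies. Capitals mark the match to the B box, and the letters were read from the RefSeq Release 6 assembly. A peak named here can meet only the flank. This holds for tRNA:Val-CAC-2-1 and tRNA:Tyr-GTA-1-4 in each list named, and for tRNA:Glu-CTC-3-8 in female fru+ cells.
tRNA:Arg-TCG-4-1, chr3R:5388228-5388300, plus strand, highest enrichment and a peak in all 4 lists: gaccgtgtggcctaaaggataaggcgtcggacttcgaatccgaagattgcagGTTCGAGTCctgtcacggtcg
tRNA:Gln-CTG-4-1, chr2L:14010565-14010636, minus strand, peak in male fru+ cells alone: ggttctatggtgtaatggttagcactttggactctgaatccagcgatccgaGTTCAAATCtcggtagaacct
tRNA:Val-CAC-2-1, chr3R:7451297-7451369, plus strand, peak in male fru+ cells alone: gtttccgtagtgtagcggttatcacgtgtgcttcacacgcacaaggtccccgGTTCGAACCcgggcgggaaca
tRNA:Met-CAT-2-1, chr3L:3121942-3122014, minus strand, peak in female fru- cells alone: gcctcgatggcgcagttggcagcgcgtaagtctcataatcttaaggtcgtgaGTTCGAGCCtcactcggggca
tRNA:Glu-CTC-3-8, chr3L:1401440-1401511, plus strand, peak in both fru+ lists: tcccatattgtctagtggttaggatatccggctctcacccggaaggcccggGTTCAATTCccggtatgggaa
tRNA:Tyr-GTA-1-4, chr3R:8642333-8642425, minus strand, with its intron, peak in both male lists: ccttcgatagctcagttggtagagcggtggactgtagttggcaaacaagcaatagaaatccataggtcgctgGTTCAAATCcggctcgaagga
tRNA:Pro-TGG-1-5, chr3R:18628467-18628538, minus strand, no peak in female fru- cells alone: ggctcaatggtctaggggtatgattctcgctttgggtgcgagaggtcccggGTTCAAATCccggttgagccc
tRNA:Asp-GTC-1-1, chr2L:5241106-5241177, minus strand, no peak in any list: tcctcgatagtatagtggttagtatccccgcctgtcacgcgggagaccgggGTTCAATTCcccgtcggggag
tRNA:Ala-AGC-2-2, chr3R:17619738-17619810, plus strand, peak in all 4 lists and no match to the B box letters: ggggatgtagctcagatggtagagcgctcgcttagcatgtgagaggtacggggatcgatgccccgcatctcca

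The share of tRNA genes in open chromatin was close to that of protein-coding gene starts in 3 lists and above it in male fru+ cells. A peak was present at 148 tRNA genes in male fru+ cells (50.2%, 95% Wilson interval 44.5 to 55.8), 135 in female fru+ cells (45.8%, 40.2 to 51.5), 135 in male fru- cells (45.8%, 40.2 to 51.5) and 132 in female fru- cells (44.7%, 39.2 to 50.5). Of 13968 protein-coding gene starts, taken as windows of the same width, 43.8% had a peak in male fru+ cells, 43.3% in female fru+ cells, 44.3% in male fru- cells and 44.2% in female fru- cells. Of 503835 genome windows of that width, the shares were 7.83%, 7.72%, 7.88% and 8.02% in the same order. The intervals cover counting error only, and since neighbouring genes share peaks the genes are not independent.

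**Figure D1:**
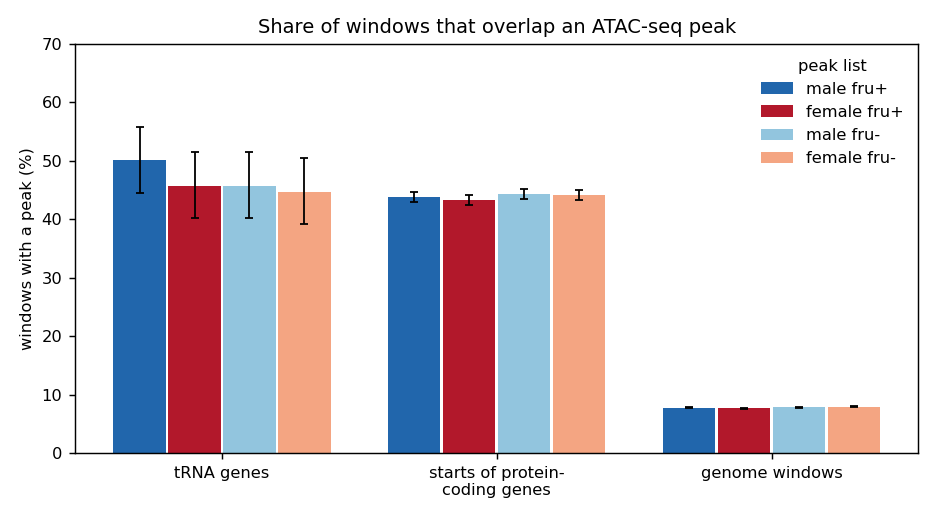
Bars give the percentage of windows that overlap a peak, for tRNA genes, starts of protein-coding genes and genome windows of 273 bp, in each of the 4 lists, with 95% Wilson intervals. The tRNA genes stood at 44.7% to 50.2%, next to coding starts at 43.3% to 44.3%, and genome windows stood at 7.72% to 8.02%.

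The same tRNA genes tended to be called in every list. All 4 lists had a peak at 130 genes (44.1%), no list had one at 146 genes (49.5%), and 19 genes lay between. For a peak in all 4 lists the share was 40.9% of coding starts and 5.9% of genome windows. The overlap rule sets these counts, because with the summit required to lie in the window 48 genes had a peak in all 4 lists and 206 in none. By overlap, 87.2% of the 149 genes with any peak had it in all 4 lists, against 87.5% of coding starts with any peak and 57.3% of such genome windows. Merged into regions, the peaks at tRNA genes formed 82 regions, and 71 of these had a peak in every list (86.6%), against 56.1% of all 14716 regions. The peaks at tRNA genes also stood high in their lists, with a median rank by q-value at the 79.2nd percentile in male fru+ cells, 77.7th in female fru+ cells, 82.2nd in male fru- cells and 80.1st in female fru- cells. Stronger peaks can be found in more lists, and the part of strength in the sharing was not tested.

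The level of enrichment was also close between lists. The deposited fold enrichment, summit coverage over local background, had a median of 7.39 in male fru+ cells, 7.67 in female fru+ cells, 7.74 in male fru- cells and 7.93 in female fru- cells over the 130 genes. These genes were kept for a peak in every list, and genes that share a peak each carry its value. Counted once per peak, the peaks at tRNA genes had a median of 6.94 in male fru+ cells and 7.40 in female fru+ cells. It was 7.70 in male fru- cells and 7.97 in female fru- cells. The median for all peaks of a list was between 4.21 and 4.33. Over 67 autosomal tRNA regions present in all lists, the log2 ratio of male fru+ to male fru- had a median of -0.07 and ran between -0.48 and 0.28, beside a median of -0.09 over 6927 autosomal regions. For male fru+ over female fru+ the median was -0.03 (range -0.53 to 0.66), beside -0.02 over all regions. For female fru+ over female fru- it was -0.06 (range -0.45 to 0.22), beside -0.06, and for male fru- over female fru- it was 0.00 (range -0.20 to 0.53), beside 0.01. In none of these pairs did any of the 67 regions reach a log2 ratio of 1 in either direction. Such ratios were rare over the 6927 autosomal regions too. Above 1 and below -1 lay 7 and 11 for male fru+ over male fru-, and 10 and 10 for male fru+ over female fru+. For female fru+ over female fru- they were 1 and 3, and for male fru- over female fru- 0 and 1. Both sets hold only regions with a peak in every list. Where a region held several peaks of a list, the highest fold was taken. The summit of that peak can lie far from the tRNA gene, as at tRNA:Asp-GTC-1-4 below, so the ratio then does not measure the gene.

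The highest mean enrichment was at tRNA:Arg-TCG-4-1, an arginine tRNA gene of a sequence found once, in an intron of the chitin synthase gene kkv on 3R. Its fold enrichment was 17.7 in male fru+ cells, 17.5 in female fru+ cells, 17.8 in male fru- cells and 17.7 in female fru- cells. The summit lay 57 bp upstream of the gene in 3 lists and 58 bp upstream in female fru- cells, so level and position were nearly the same in all 4.

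Next came the initiator methionine genes tRNA:iMet-CAT-1-4 and tRNA:iMet-CAT-1-5, which share a peak in an intron of ome on 3L. Fold enrichment there was 15.8 in male fru+ cells, 16.1 in female fru+ cells, 16.4 in male fru- cells and 16.5 in female fru- cells, and the peak ranked at the 99.8th percentile or above in each list. Initiator tRNA starts every protein chain.

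The serine genes tRNA:Ser-GCT-1-1, tRNA:Ser-GCT-2-4 and tRNA:Ser-GCT-2-5 share a peak on 3R. It had a fold enrichment of 12.2 in male fru+ cells, 14.2 in female fru+ cells, 17.1 in male fru- cells and 14.9 in female fru- cells, the widest spread among these leading genes, with the male lists at its ends. Its summit was 76 bp upstream of tRNA:Ser-GCT-1-1 in every list.

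Lone genes also reached this level. tRNA:Thr-AGT-1-7, in an intron of the FGF ligand gene bnl, had a fold enrichment of 15.8 in male fru+ cells, 12.5 in female fru+ cells, 13.8 in male fru- cells and 14.4 in female fru- cells. tRNA:Gln-CTG-1-1, in mrj, had 11.5 in male fru+ cells, 13.2 in female fru+ cells, 13.9 in male fru- cells and 14.9 in female fru- cells. tRNA:Thr-TGT-2-1, in sprt, had 14.3 in male fru+ cells, 11.2 in female fru+ cells, 15.2 in male fru- cells and 12.5 in female fru- cells. The order of the lists differed between these genes. The last was tRNA:Arg-CCT-1-2, with 12.5 and 13.0 in male and female fru+ cells and 13.4 and 13.9 in male and female fru- cells, on a peak shared with tRNA:Arg-CCT-1-3.

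The summits fell at the 5′ side of the genes. Of the peaks at tRNA genes, 81.0% had the summit within 100 bp of the nearest tRNA 5′ end in male fru+ cells (68 of 84), 81.6% in female fru+ cells (62 of 76), 80.3% in male fru- cells (61 of 76) and 80.6% in female fru- cells (58 of 72). Upstream positions prevailed, with 51 summits 1 to 100 bp upstream and 17 from 0 to 100 bp downstream in male fru+ cells, 50 and 12 in female fru+ cells, 48 and 13 in male fru- cells, and 48 and 10 in female fru- cells. Within the upstream stretch the summits gathered at 2 places. Between 75 and 50 bp upstream lay 16, 22, 17 and 18 summits in the same order of lists, and between 25 and 0 bp upstream lay 24, 17, 22 and 22, with 5 in every list between them. Peaks with 1 tRNA gene and no coding start within 1000 bp of it had a median summit position of -9 bp in male fru+ cells (25 peaks), -55 bp in female fru+ cells (19), -17.5 bp in male fru- cells (20) and -52 bp in female fru- cells (17). Shifting reads to the point of transposase insertion is not described for the deposited peaks, which bears on positions of this size.

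By amino acid, all classes but selenocysteine had genes in open chromatin. The share with a peak in all 4 lists was highest for isoleucine (8 of 12), initiator methionine (4 of 6) and histidine (4 of 6), each 66.7%. Leucine followed with 13 of 22, then serine with 11 of 20, threonine with 9 of 18, glutamine with 6 of 12, glutamate with 10 of 21, alanine with 8 of 17 and valine with 7 of 15. Cysteine had 3 of 7, aspartate 6 of 14, tyrosine 4 of 10, arginine 10 of 26, tryptophan 3 of 8 and phenylalanine 3 of 8. The lowest shares were in lysine (7 of 19), proline (6 of 17), glycine (5 of 20), asparagine (2 of 10) and elongator methionine (1 of 6), and the lone selenocysteine gene, tRNA:SeC-TCA-1-1, had no peak. With so few genes per class the intervals were wide, for example 39.1 to 86.2% for isoleucine and 11.2 to 46.9% for glycine.

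Lysine had the most genes that differed between lists (4), followed by asparagine and glutamate (3 each). A peak was present at 11 lysine genes in male fru+ cells against the 7 in all lists, and at 5 asparagine genes in male fru+ cells against the 2 in all lists, with no further gene of these classes in another list. Glutamate varied otherwise, with a peak at 13 genes in male fru+ cells, 13 in female fru+ cells, 11 in male fru- cells and 10 in female fru- cells. For alanine, arginine, aspartate, cysteine, glycine, isoleucine, leucine, phenylalanine, serine, tryptophan and initiator methionine, every gene with a peak had it in all 4 lists.

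**Figure D2:**
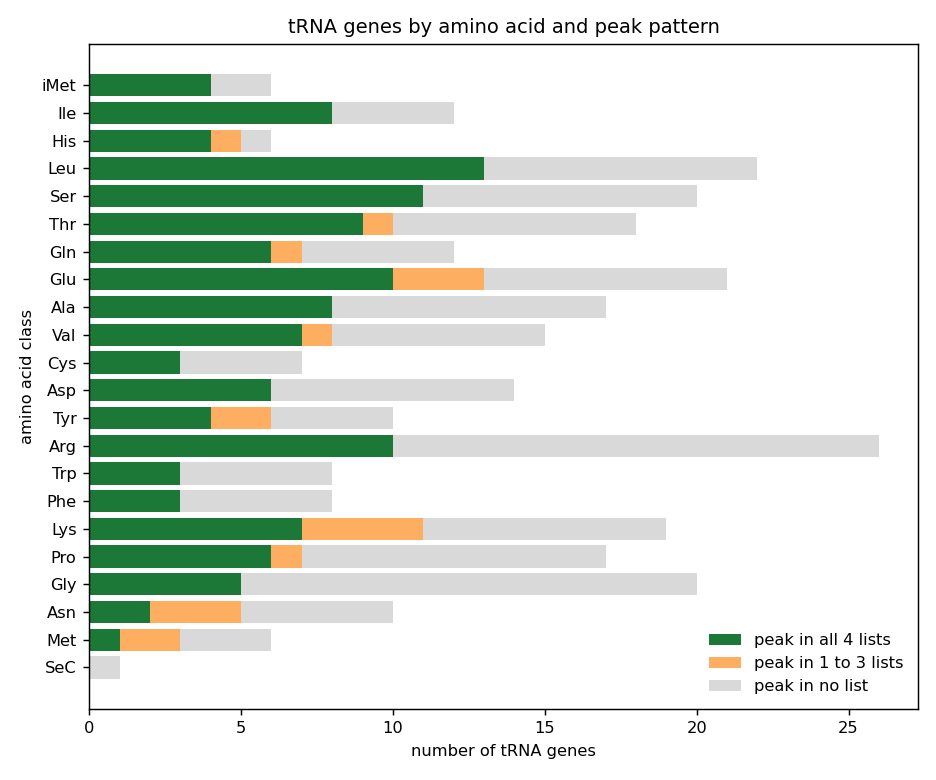
Bars give the number of tRNA genes in each amino acid class with a peak in all 4 lists, in 1 to 3 lists and in no list, ordered by the share in all 4. Genes in 1 to 3 lists are most frequent in lysine (4) and are absent from arginine, the largest class with 26 genes.

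Identical copies of a tRNA gene differed in whether a peak was called. The 295 genes encode 89 distinct mature sequences, and 252 genes belong to 46 sets of identical copies. In 33 sets some copies had a peak in at least 1 list and others had none, in 8 every copy had a peak, and in 5 no copy did. Among the 25 sets of 5 or more copies, 24 were mixed and 1 had a peak at every copy, the 6 copies of tRNA:Glu-TTC-1. The 13 copies of tRNA:Gly-GCC-1 had 3 with a peak, the 12 of tRNA:Asp-GTC-1 had 6, the 11 of tRNA:Ala-AGC-2 had 3 and the 10 of tRNA:Arg-ACG-1 had 3.

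The aspartate family, whose sequence is printed above, was open at tRNA:Asp-GTC-1-4 in every list and had no peak at tRNA:Asp-GTC-1-12. In male fru+ cells tRNA:Asp-GTC-1-4 lay under a peak of its own, 297 bp wide, with a fold enrichment of 3.66 and the summit 6 bp upstream. In the other lists it lay under a peak 3016 bp wide in female fru+ cells, 2777 bp in male fru- cells and 2928 bp in female fru- cells, whose summits lay at -2475, -2475 and -2427 bp from its 5′ end in the same order, so the fold enrichment of those peaks does not measure this gene. The 50 bases upstream of these identical genes are shown to compare what surrounds them.
upstream of tRNA:Asp-GTC-1-4, chr2L:8541624-8541673, minus strand: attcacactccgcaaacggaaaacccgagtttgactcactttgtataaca
upstream of tRNA:Asp-GTC-1-12, chr3R:24914784-24914833, plus strand: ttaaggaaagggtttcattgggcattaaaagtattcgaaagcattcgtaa

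Features of the gene itself were found at similar shares in genes with and without a peak. The B box letters occurred in 93.1% of the 130 genes with a peak in all lists and in 91.8% of the 146 genes with none, and the T run in 94.6% and 96.6%. The 50 bases upstream were 57.1 ± 7.25% A or T in the first set and 61.7 ± 9.59% in the second (SD over genes). Of the 21 genes without the B box letters, 18 held GATCNANNC instead, a spelling searched after the first results were seen. They are mostly alanine AGC and initiator methionine genes, and 9 of the 21 had a peak in all lists. These matches are descriptions of letters and not of binding.

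Mapping sets a limit on such comparisons, because reads that fit several places are lost. On average 96.8% of the 75 bp words in a window were unique in the genome for genes with a peak in all lists and 94.3% for genes with none. Only 20 genes fell under 90%, and 9 of them had a peak in all lists.

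Genes that stood alone had a lower share with a peak than genes with neighbours. Joining genes less than 5000 bp apart gave 146 loci, of which 77 were lone genes, 39 were pairs, 19 held 3 or 4 genes and 11 held 5 or more. A peak in all 4 lists was present at 17 of 77 lone genes (22.1%, 14.3 to 32.5), at 42 of 78 genes in pairs (53.8%, 42.9 to 64.5), at 31 of 62 in loci of 3 or 4 (50%, 37.9 to 62.1) and at 40 of 78 in larger clusters (51.3%, 40.4 to 62.1). Counted by locus, at least 1 gene was open in all lists at 22 of 39 pairs, 12 of 19 loci of 3 or 4 and 9 of 11 larger clusters. A locus with more genes is more likely to hold such a gene, so the counts by locus do not compare the classes. Genes of a locus often lie under the same peak, and up to 6 tRNA genes shared a single peak.

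By chromosome arm, 58 of 100 genes on 2R had a peak in all lists, 32 of 79 on 3R, 16 of 41 on 2L, 17 of 49 on 3L and 7 of 26 on X. Chromosomes 4 and Y hold no member. Between protein-coding genes 78 of 158 tRNA genes had a peak in all lists (49.4%), in introns 46 of 130 (35.4%) and in exons 6 of 7. Genome windows were not counted by arm, place or distance, so whether these shares are particular to tRNA genes was not tested. Distance to a coding start moved with the shares. Within 500 bp of a coding start 22 of 34 genes were open in all lists (64.7%, 47.9 to 78.5), and over 5000 bp away 41 of 113 still were (36.3%, 28.0 to 45.5).

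The 11 clusters of 5 or more genes ranged from a peak at every gene to a peak at none. The cluster at 19725620 to 19729353 on 2R, with 6 glutamate and 2 initiator methionine genes, had a peak at all 8 genes in every list, 11544 bp or more from any coding start. Fold enrichment at its tRNA:iMet-CAT-1-1 was 4.35 in male fru+ cells, 4.47 in female fru+ cells, 5.13 in male fru- cells and 5.17 in female fru- cells. At the other end, the cluster at 8139533 to 8141042 on 3R, with 5 arginine genes and 1 asparagine gene, had no peak in any list, though 96.5 to 99.5% of the words in its windows were unique.

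Most clusters were open at some genes and not at others, with the same genes in every list. The isoleucine and leucine cluster on 2R (13430282 to 13432794) had 6 of 7 genes open, the leucine cluster on 3L (8060214 to 8068290) 5 of 6, and the cysteine and lysine cluster on 3L (3095737 to 3097590) 4 of 6, which were 3 cysteine genes and 1 lysine gene. The cluster of alanine, proline, threonine and valine genes on 3R (17617761 to 17631750) had 5 of 11, the arginine and serine cluster on X (14014814 to 14017284) 3 of 7, and the glutamine cluster on 2L (2009155 to 2013250) 2 of 5. In the X cluster some windows held as little as 62.8% unique words.

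The remaining 3 clusters differed between lists. The histidine cluster on 2R (12333926 to 12336804) had 5 of 5 genes in male fru+ cells and in female fru- cells and 4 in the other lists, a difference made by the pseudogene tRNA:His-GTG-2-1Psi, whose nearest peak edge lay 29 bp away in male fru+ cells and 30 bp in female fru- cells, and 200 and 198 bp away in female fru+ cells and male fru-. The glutamate cluster on 3L had 2 of 6 genes in both fru+ lists and none in the fru- lists. The cluster of arginine, asparagine, lysine and isoleucine genes at 6161535 to 6171759 on 2R had 6 of 11 genes in male fru+ cells and 3 in each other list.

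**Figure D3:**
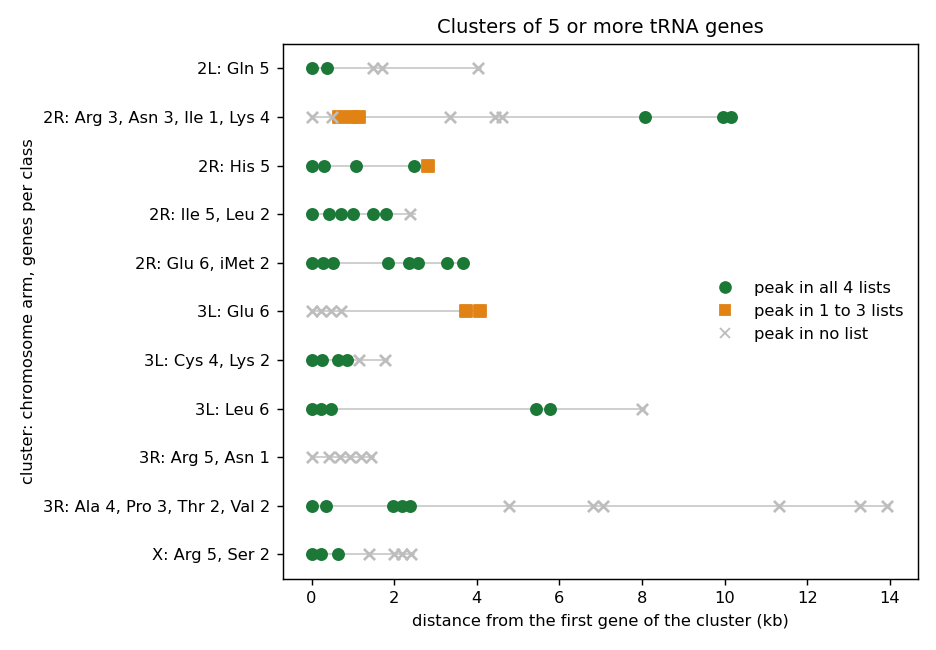
Each row is a cluster of 5 or more tRNA genes, labelled by arm and genes per class, and each symbol is a gene at its distance in kb from the first gene, marked by whether it had a peak in all 4, in 1 to 3 or in no list. One cluster of 8 genes on 2R is open throughout, the cluster of 6 on 3R has no peak, and orange squares mark 6 genes in 3 clusters that differ between lists.

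A peak in male fru+ cells alone was found at 10 tRNA genes, which rest on 7 peaks. These are 6.71% of the 149 genes with any peak. Among genome windows with any peak 7.72% had it in male fru+ cells alone, 4.19% in female fru+ cells alone, 3.63% in male fru- cells alone and 4.41% in female fru- cells alone, and among coding starts 1.29% had it in male fru+ cells alone. By region, 6 of 82 tRNA regions (7.32%) and 8.39% of all regions were present in male fru+ cells alone. The share at tRNA genes was therefore near that of the lists as a whole. No tRNA gene had a peak in female fru+ cells alone or in male fru- cells alone, and 1 had it in female fru- cells alone.

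tRNA:Met-CAT-1-2, an elongator methionine gene in an intron of Roc2 on 2R (11660563 to 11660635), had the strongest of these peaks. Its fold enrichment in male fru+ cells was 6.96, its -log10 q 64.2 and its rank the 66.2nd percentile, with a summit coverage of 131 fragments over a background of 17.96 and the summit 4 bp upstream of the gene. The nearest peak in the other lists was 4727 to 4749 bp away. The peak was narrow, 203 bp wide, and 42 of the 5909 male fru+ peaks with a coverage of at least 100 fragments were no wider, against a median of 819 bp. The background of the other lists was 18.9 fragments in male fru- cells, 14.3 in female fru+ cells and 16.4 in female fru- cells. Coverage at this gene in those lists was not examined, and the part of depth was not tested. This gene is 1 of 5 identical copies, of which 1 had a peak in all lists.

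The other 9 genes had weaker peaks. tRNA:Asn-GTT-1-5, tRNA:Asn-GTT-1-6 and tRNA:Lys-CTT-1-2, in an intron of the ecdysone receptor gene EcR, share a peak at a fold enrichment of 2.22 and 150 fragments over a local background of 67.2. tRNA:Asn-GTT-1-1, in the same gene, had 1.85, with 171 fragments over 92.1. These local backgrounds lie well above the 17.96 of the genome, so the surroundings of both peaks were covered too, and tRNA:Lys-CTT-1-5 in the same cluster was open in all lists, with 6.94 in male fru+ cells, 8.17 in female fru+ cells, 8.65 in male fru- cells and 8.19 in female fru- cells. The nearest peak of another list was 1057 bp or more from each of these 4 genes.

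A separate group of lysine genes lies in an intron of CheB42c, also on 2R. tRNA:Lys-CTT-1-7 and tRNA:Lys-CTT-1-8 share a peak at a fold enrichment of 3.11 in male fru+ cells, and tRNA:Lys-CTT-1-6 had 2.58. The nearest peak of another list was 8444 bp or more from each of the 3 genes. Their window held 85.9% unique words at tRNA:Lys-CTT-1-8 and 96.0% or more at the others. The 13 identical copies of tRNA:Lys-CTT-1 thus included 4 with a peak in all lists, 4 in male fru+ cells alone and 5 in none.

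The last 2 genes lie elsewhere. tRNA:Gln-CTG-4-1 on 2L, between protein-coding genes, had a fold enrichment of 2.85 in male fru+ cells, with the summit 307 bp past its 5′ end, and the nearest other peak was 661 bp away. tRNA:Val-CAC-2-1 on 3R was reached only by the edge of a male fru+ peak, 71 bp from the gene and 1243 bp wide, whose summit lay at -1225 bp from its 5′ end. The other lists had a peak in the same place that ended 283 to 439 bp from the gene. tRNA:Gln-CTG-4-1 and tRNA:Lys-CTT-1-6 were named after their values were seen, to complete the set.

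**Figure D4:**
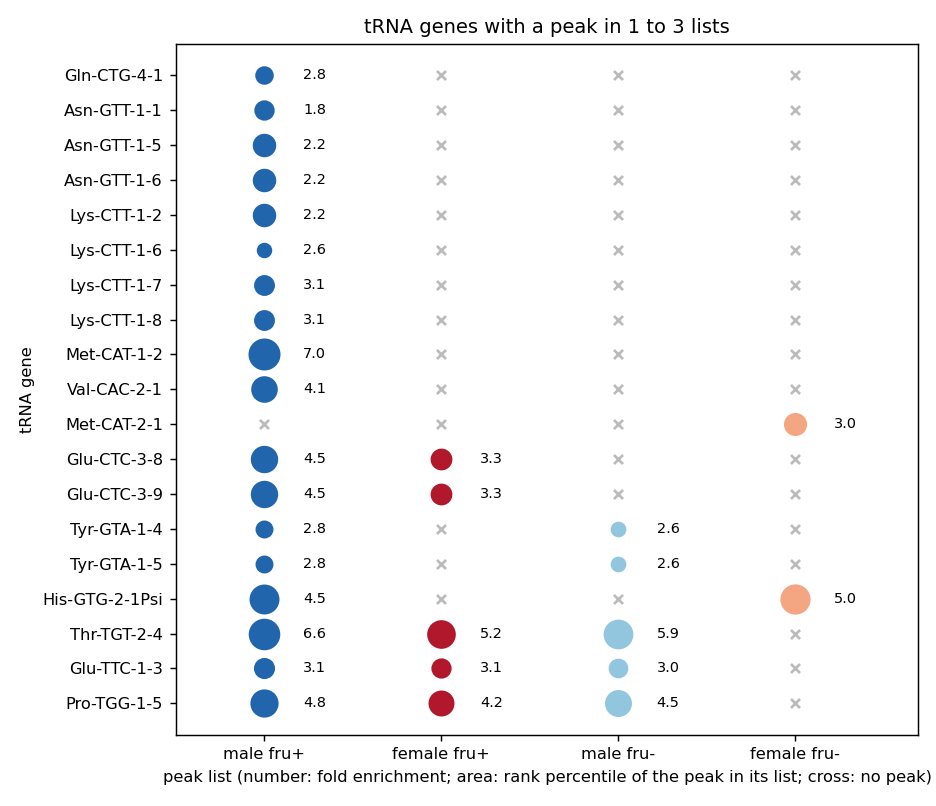
Each row is a tRNA gene with a peak in 1 to 3 lists, each column a list, with the fold enrichment printed beside a dot whose area grows with the percentile rank of the peak in its list, and a cross where there was no peak. Of 19 genes, 18 have a peak in male fru+ cells, and 10 have it there alone, with fold enrichment between 1.85 and 6.96.

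Outside male fru+, the only single-list gene was tRNA:Met-CAT-2-1 on 3L, in an intron of promL. It had a fold enrichment of 3.0 in female fru- cells, with 76 fragments over 24.7 and the summit 8 bp upstream, and the nearest peak in the other lists was 728 to 826 bp away.

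Pairs of lists accounted for 5 genes, all of them named after their values were seen. By region, 1 of 82 tRNA regions (1.22%) was present in both fru+ lists alone, beside 1.71% of all regions. In both male lists alone it was also 1 (1.22%), beside 2.34%. In male fru+ and female fru- cells alone it was 0, beside 1.01%. tRNA:Glu-CTC-3-8 and tRNA:Glu-CTC-3-9 in Ptp61F shared a peak in both fru+ lists, at a fold enrichment of 4.48 in male fru+ cells and 3.34 in female fru+ cells. The nearest peak in male fru- cells and female fru- was 21941 bp away or more. Of the 4 genes of this cluster with no peak, 3 had 0 to 49.5% unique words. tRNA:Tyr-GTA-1-4 and tRNA:Tyr-GTA-1-5 shared a peak in both male lists, with 2.80 in male fru+ cells and 2.61 in male fru- cells, ranked at the 16.2nd and 11.01st percentile, among the weakest peaks at any member. The histidine pseudogene described above was the last.

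Absence from female fru- alone was seen at 3 genes. By region, the pattern held 2 of 82 tRNA regions (2.44%) and 1.49% of all regions. tRNA:Pro-TGG-1-5, in an intron of the piRNA pathway gene qin on 3R, had a fold enrichment of 4.80 in male fru+ cells, 4.20 in female fru+ cells and 4.48 in male fru- cells, and no peak in female fru- cells within 29814 bp. tRNA:Glu-TTC-1-3, in sm on 2R, had 3.12, 3.15 and 2.97 in the same order. tRNA:Thr-TGT-2-4 on 2R had 6.64, 5.18 and 5.94, but there the peak in female fru- cells ended 232 bp from the gene and the summits lay 602 to 608 bp away, so the lists differed in the edge of a wide peak. No gene was missing from another single list. Of all regions, 2.77% were missing from female fru+ alone, 4.89% from male fru+ alone and 1.54% from male fru- alone.

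The 100 bp limit decided few genes, but these include several of the 19 with a peak in 1 to 3 lists. A peak overlapped the gene itself at 142 genes in male fru+ cells, 131 in female fru+ cells, 132 in male fru- cells and 129 in female fru- cells, and 6, 4, 3 and 3 further genes were reached through the flank. Just inside the limit, tRNA:Lys-CTT-1-2 was 96 bp from its peak in male fru+ cells and tRNA:Gly-GCC-1-3 was 57 to 59 bp from its peak in the other lists. Just outside, tRNA:Asn-GTT-1-4 was 165 bp away in male fru+ cells and tRNA:Gln-CTG-2-4 was 136 to 177 bp away in the others. The flank alone also reached tRNA:Val-CAC-2-1 (71 bp) and tRNA:His-GTG-2-1Psi (29 bp) in male fru+ cells. It alone reached tRNA:Tyr-GTA-1-4 in male fru+ (4 bp) and male fru- cells (9 bp), and tRNA:Glu-CTC-3-8 in female fru+ cells (4 bp). With no flank, tRNA:Lys-CTT-1-2 and tRNA:Val-CAC-2-1 left the genes with a peak in male fru+ cells alone, and tRNA:Glu-CTC-3-8 joined them. These then numbered 9, against 10. Genes with no peak were mostly far from one, with a median gap of 2601 bp in male fru+ cells, 2701 bp in female fru+ cells, 2853 bp in male fru- cells and 3028 bp in female fru- cells.

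Other genes of RNA polymerase III were more divided. None of the 100 annotated 5S rRNA genes had a peak in any list. All their windows had under 90% unique words, with a median of 0. The part of the mapping quality filter in this was not tested. Both 7SL RNA genes, which encode the RNA of the signal recognition particle, were open in all lists, though only 9.18% of the words in their windows were unique. 7SLRNA:CR42652 had a fold enrichment of 9.01 in male fru+ cells, 8.74 in female fru+ cells, 9.58 in male fru- cells and 9.09 in female fru- cells. The 7SK gene snRNA:7SKa and RNaseMRP:RNA also had a peak in every list, while snRNA:7SKb and RNaseP:RNA had none, and all words in the windows of these 4 genes were unique. Of the 4 U6 type genes, which serve in splicing, snRNA:U6:96Ac was open in all lists, with 5.85 in male fru+ cells, 5.51 in female fru+ cells, 9.36 in male fru- cells and 7.30 in female fru- cells, snRNA:U6:96Ab in all but female fru+, and snRNA:U6:96Aa and snRNA:U6atac in none. The windows held 81.97 to 83.3% unique words at the 3 genes snRNA:U6:96Aa to snRNA:U6:96Ac and 100% at snRNA:U6atac. Of 24 snRNA genes of RNA polymerase II 4 were open in all lists (16.7%), and 11 of them had under 90% unique words.

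Genes for the proteins of the pathway differed by class, beside 40.9% of all coding starts with a peak in all 4 lists. Among 6 factors, Brf and Bdp1 of TFIIIB, Trf, the repressor Maf1 and La had a peak in all lists. La binds the U tail of new transcripts. Tbp had no peak in female fru- cells. Maf1 had the highest, at a fold enrichment of 14.4 in male fru+ cells, 14.6 in female fru+ cells, 13.3 in male fru- cells and 15.6 in female fru- cells. Of 10 subunits of the polymerase, 4 had a peak in every list (40%), near the share of all coding starts, 3 had none and 3 were between. Of 32 aminoacyl-tRNA synthetase genes, whose enzymes load each tRNA with its amino acid, 23 had a peak in all lists (71.9%) and 5 had none. The cytosolic enzymes for asparagine and aspartate, AsnRS and AspRS, were among those with none.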

How the data were processed

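ATAC-seq was performed by the authors on 8 samples, 2 per group, and groups were taken from sample titles. Per the study's methods and the submitters' processing notes, cutadapt trimmed the reads, Bowtie2 placed them on dm6, Picard marked duplicates, SAMtools applied a mapping quality filter and the authors called peaks with MACS2 at an FDR of 0.001. Tool versions are not given in the sources used here. The authors deposited 1 peak list per group. The deposited fold is the ratio of summit pileup to local background, and p-values and q-values are deposited as -log10. The deposited score is a rounded form of the -log10 q and was not used.

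Peak counts per list limited precision, and summit coverage and background were solved for each peak from its fold and its p-value, which MACS2 derives from them. Genes were taken from Ensembl release 115 (BDGP 6.54), and all 295 positions were equal in RefSeq. Where several peaks met a window, the one with the highest -log10 q gave its values. Shares carry 95% Wilson intervals. Sequence letters came from the RefSeq assembly. Overlap and recovery routines were tested on simulated data. Python 3.11.15, numpy 2.4.6, pandas 2.3.3, scipy 1.17.1 and matplotlib 3.10.9 were used.

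The members and gene lists were chosen with earlier results of these data known. Named were the genes with the highest -log10 q, up to 12, among those with a peak in 1 list only or absent from 1 list only, the 10 with the highest mean fold among those in all 4 lists, every cluster and amino acid, and tRNA:Met-CAT-1-2, which an earlier result had named. Alternatives varied the flank, the peak threshold, list length, the overlap rule, members and the cluster gap. Reads of single samples were not analysed here.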

Additional observations from a re-analysis of the deposited data

How the results depend on the processing

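Of 82 values under alternative settings, 76 stayed within the interval of the main share or within 1.5 times the main count. Besides a rule on the summit, the settings were no flank or 250 bp, a -log10 q of at least 5 or 10, lists of equal length, merged windows, other cluster gaps, and leaving out pseudogenes, genes near coding starts or genes with under 90% unique words. A -log10 q of at least 5 and lists of equal length gave the main values throughout, so they add little. Leaving out genes near coding starts removed only the 4 genes whose window lay within 50 bp of one, so it adds little too. Within 500 bp of a coding start lay 34 genes. The limit of 1.5 times is wide, and it passed 206 genes with no peak under the summit rule against 146 by overlap. The 6 values outside the limits came from requiring the summit to lie in the window. The share with a peak was then 25.1% and 22.4% for male and female fru+ cells and 22.03% and 20.7% for male and female fru- cells, and 48 genes had one in all 4 lists. A single list other than male fru+ then held 10 genes alone, against 1 by overlap, and male fru+ held 11, of which 4 were among the 10 found by overlap and 6 had an overlapping peak in all 4 lists. A summit lies at 1 place under a peak that may cover several tRNA genes, and that place differs between lists.

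Clusters of 5 or more genes numbered 11 at a gap of 5000 bp, 8 at 2000 bp and 11 at 10000 bp. No paired analysis was made because the peak lists used are labelled as pooled and the single replicates were not analysed here. For the same reason no replicate was left out. Given the replicate named in the peaks of each list, whether the lists hold all replicates of their group could not be settled. Absence of a peak does not show closed chromatin, since coverage may have stayed below the threshold, and the female fru+ list was the shallowest.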
